A study of Mus musculus with 8 samples.

Results

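Replication-dependent histone genes encode the bulk of the chromatin proteins that a cell deposits behind the replication fork. They were taken here as the transcript clusters (the probe sets of the array, each laid along 1 gene or predicted transcript) that carry a single gene symbol of the Hist1h, Hist2h, Hist3h or Hist4h kind or of the newer H1f, H2ac, H2bc, H3c and H4c kind. The rule used names only and found 32 clusters of 31 genes among 65956 clusters on the array, of which 30638 carry a single symbol. By class they were 8 clusters for the linker histone H1, 10 for H2A, 8 for H2B, 3 for H3 and 3 for H4. By place, 23 lay in the large Hist1 locus on chromosome 13, 6 in the Hist2 locus on chromosome 3 and 3 outside the loci, with none from Hist3 or Hist4. A further 37 histone clusters list several symbols, because their probes match more than 1 near-identical gene, and are described apart. Probes of single-symbol clusters can still pick up close copies, so a level belongs to a cluster rather than with certainty to 1 gene.

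The arrays measured whole lung from 8 mice, 1 array per animal, 4 weeks after tamoxifen. All mice carried the Rosa26::CreERT2 transgene, a recombinase active in most tissues once tamoxifen is given. In 4 mice (Atf4wt/wt, here WT) the Atf4 alleles were intact, and in 4 mice (Atf4D/D, here KO) tamoxifen had excised Atf4, which encodes the main transcriptional effector of the integrated stress response. Each group held 3 male mice and 1 female mouse aged 13 weeks, WT replicate 3 and KO replicate 2 being the females, and because the transgene is not limited to lung cells, blood and marrow cells could lose Atf4 as well. The comparison asks what loss of host Atf4 does to the lung before tumour cells arrive.

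In dividing cells, each S phase requires new histones in step with new DNA, and the genes for the 4 core histones (H2A, H2B, H3, H4) and for linker H1 are switched on together at the G1 to S transition through the coactivator Npat. Their mRNAs are unusual in having no introns in most cases and no poly(A) tail: the 3′ end is a conserved stem-loop, bound by Slbp, and the mRNA is destroyed when replication stops. Core histones wrap DNA into nucleosomes, and H1 binds where DNA enters and leaves. In a mostly resting tissue such as adult lung, these transcripts come largely from the minority of cells in cycle, while some histone genes also yield polyadenylated mRNA in cells that no longer divide. The labelling reaction was primed with both poly(T) and random oligomers, so transcripts without a tail could be copied. In bulk lung, fewer cells of a type and less histone mRNA per cell cannot be told apart.

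The DNA just before the start of these genes holds short motifs that differ between the histone classes. The 170 bases before the annotated start are shown for H1f2, the member with a higher KO mean and the smallest p in that direction, for 3 other H1 genes of Hist1 to set beside it, for H2ac12 and H2ac18, core members with lower KO means, and for H2bc23, the first gene named by a several-symbol H2B cluster that was called higher. H2bc23 and the H1 genes used for comparison were chosen after values were seen. Sequences come from RefSeq on build GRCm38.p6 and are written 5′ to 3′ on the gene's strand, the last base lying just before the start. H1f2 is chr13:23738637-23738806 (plus strand), H1f3 is chr13:23554862-23555031 (plus), H1f5 is chr13:21780626-21780795 (minus), H1f1 is chr13:23763498-23763667 (plus), H2ac12 is chr13:22035644-22035813 (minus), H2ac18 is chr3:96245327-96245496 (plus) and H2bc23 is chr13:21810200-21810369 (minus). Capitals mark exact matches on either strand to 4 motifs. The CCAAT box of many cell-cycle promoters was searched as those 5 letters. The box that positions the general transcription machinery was searched as TATAAA. The octamer known from H2B promoters was searched as ATTTGCAT. The H1 box known from linker histone promoters was searched as AAACACA.
H1f2: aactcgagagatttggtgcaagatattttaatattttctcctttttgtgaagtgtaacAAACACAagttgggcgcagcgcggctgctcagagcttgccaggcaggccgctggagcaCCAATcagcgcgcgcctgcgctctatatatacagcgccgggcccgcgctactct
H1f3: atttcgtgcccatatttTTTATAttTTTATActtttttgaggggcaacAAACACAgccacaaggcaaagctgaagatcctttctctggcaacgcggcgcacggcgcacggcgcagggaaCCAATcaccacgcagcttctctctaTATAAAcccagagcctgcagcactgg
H1f5: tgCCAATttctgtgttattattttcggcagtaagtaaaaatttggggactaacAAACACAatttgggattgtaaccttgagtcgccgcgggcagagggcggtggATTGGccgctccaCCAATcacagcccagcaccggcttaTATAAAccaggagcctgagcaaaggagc
H1f1: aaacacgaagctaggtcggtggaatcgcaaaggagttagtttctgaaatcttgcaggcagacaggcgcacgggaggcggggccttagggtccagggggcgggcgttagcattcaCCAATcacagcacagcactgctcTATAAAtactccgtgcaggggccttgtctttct
H2ac12: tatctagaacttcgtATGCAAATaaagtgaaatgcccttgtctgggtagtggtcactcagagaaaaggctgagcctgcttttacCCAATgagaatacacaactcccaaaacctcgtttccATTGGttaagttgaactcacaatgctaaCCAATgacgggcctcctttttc
H2ac18: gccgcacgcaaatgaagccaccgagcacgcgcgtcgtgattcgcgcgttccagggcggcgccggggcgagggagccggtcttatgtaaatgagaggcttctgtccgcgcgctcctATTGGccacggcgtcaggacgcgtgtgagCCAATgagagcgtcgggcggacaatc
H2bc23: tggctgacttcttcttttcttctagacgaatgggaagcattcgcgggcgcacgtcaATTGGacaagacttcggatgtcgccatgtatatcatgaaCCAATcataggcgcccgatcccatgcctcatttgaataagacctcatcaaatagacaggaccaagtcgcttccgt

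A CCAAT box stood in 25 of 28 member genes (89.3%; no window was matched for the other 3 of the 31 genes), against 26.6% of all 32851 promoters over the same length. Counted back from the start, it began at −54 in H1f2, −51 in H1f3, −56 in H1f1 and −53 in H1f5. The H1 box, a short element of replication-dependent H1 genes, began at −112 in H1f2, −122 in H1f3 and −117 in H1f5 and was not found in the H1f1 window. It was found in 4 of 8 H1 genes, in 21.4% of the members and in 4.10% of all promoters. H1f2 lacked the exact letters TATAAA, which began at −26 in H1f3, −33 in H1f1 and −28 in H1f5 and stood in 28.6% of members against 8.40% of all promoters. Its window does hold the similar letters tatatata near the start, which were not searched for. The octamer, bound by Oct1 (Pou2f1), was found in 5 of 7 H2B genes and in 25.0% of the members, against 1.15% of all promoters. H2ac12 holds it on the other strand, and since H2ac12 and H2bc12 are head-to-head neighbours, the same letters are counted for both genes. The letters TGATGNAA, the core of an Atf4 element, were found in 0 of 28 member windows and in 2.48% of all promoters. These matches are letters only, and a window without a match says nothing about binding. Base by base, H1f2 shared 31.8% of positions with H1f3, 37.1% with H1f1 and 24.7% with H1f5, whereas the windows of H2bc23 and its duplicate H4bc24 (formerly Hist1h2br) were 100% identical.

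The targeted gene was lower in every KO lung. Atf4 read 6.99, 8.03, 7.995 and 7.58 (log2 signal) in WT replicates 1 to 4 and 6.34, 6.26, 6.48 and 6.38 in KO replicates 1 to 4, and it fell by 1.29 (SE 0.21, adjusted p = 0.0485, limma). WT replicate 1 lay between the other WT lungs and the KO lungs, so counts over the histone genes are also given without it. Lung epithelial and endothelial markers averaged 15.5 to 15.7 on every array, and markers of other organs 5.19 to 5.70. Among the markers of other organs Myh6 stood apart, at 9.41 to 12.79 in WT and 10.07 to 13.69 in KO lungs. The array medians lay between 5.21 and 5.29 and pairs of arrays correlated at 0.988 to 0.996 over all clusters.

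Single-symbol histone clusters tended to read lower in KO lungs, by small amounts, but none was called. Of the 32 clusters, 25 had a lower KO mean (78.1%, against 61.0% of all clusters on the array), and the median change was −0.16 on the log2 scale, with a range from −0.43 to 0.76, against a median of −0.03 over all clusters. Of the 37 several-symbol histone clusters, 23 had a lower KO mean (62.2%), a share near that of all clusters, with a median change of −0.17. By the study's threshold (adjusted p at most 0.05 and a fold above 1.5, limma with Benjamini-Hochberg adjustment over all clusters), 0 of 32 were called, against 0.276% of all clusters, 0.229% higher and 0.047% lower. At an unadjusted p under 0.05, 6 were lower (H2ac12, H3c7, H1f3, H2ac18, H2bc3 and H2ac20), where 7.63% of all clusters were, and 1 was higher (H1f2), where 4.40% were. An alternative test with pooled variance also called 0 of these. It called 0 of all clusters on the array as well, so it cannot show whether histone clusters differ. In H1f3, H2ac12 and H3c7 all 4 KO lungs lay below all 4 WT lungs, which held for 4.41% of all clusters, and no member was higher throughout, against 2.83% of all clusters.

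**Figure D1:**
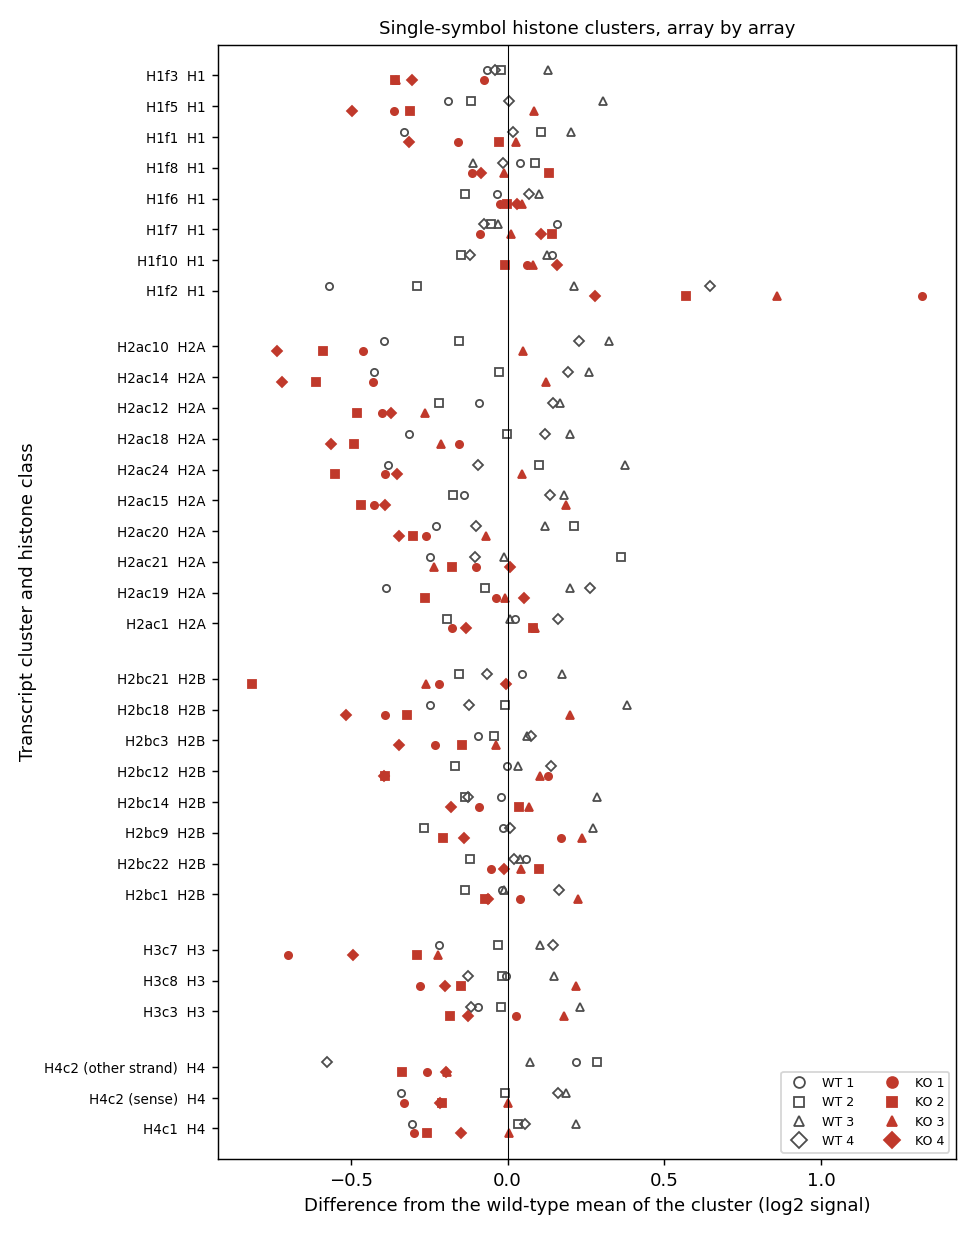
Each row is 1 single-symbol histone cluster, grouped by class, and each point is 1 array, placed by its difference from the WT mean of that cluster on the log2 scale (open grey, WT; filled red, KO; symbol shapes give the replicate). KO points sit left of 0 in most H2A, H3 and H4 rows, the triangles of KO replicate 3 lie near 0, and H1f2 lies farthest to the right in KO replicate 1 (10.22, against a WT mean of 8.89).

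Array by array, 3 KO lungs were low and 1 was not. KO replicates 1, 2 and 4 each lay below the WT mean in 26 of 32 histone clusters, and KO replicate 3 in 11 of 32. For all clusters of the array the corresponding shares were 61.6%, 50.6%, 63.4% and 58.7% for KO replicates 1 to 4, so KO replicate 3 did not stand apart there in the same way. The median histone cluster deviated from its WT mean by −0.17, −0.23, 0.04 and −0.20 in KO replicates 1 to 4 and by −0.09, −0.05, 0.17 and 0.02 in WT replicates 1 to 4. WT replicate 3 was thus the highest lung and KO replicate 3 overlapped the WT lungs. Without WT replicate 1 the median change was −0.22, 25 of 32 means were lower, and 12 clusters were lower at an unadjusted p under 0.05. Without KO replicate 3 the median was −0.23 and that count was 13, whereas without WT replicate 3 or KO replicate 2 it was 3. Those 2 lungs are the females and were the highest and the lowest by the median histone cluster. In males only, the median change was −0.11, 22 of 32 means were lower and 2 clusters were lower at an unadjusted p under 0.05.

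The linker histones went in both directions. H1f2 (formerly Hist1h1c), a linker variant present in most somatic tissues, was the brightest H1 cluster. It read 8.32, 8.60, 9.11 and 9.54 in WT replicates 1 to 4 and 10.22, 9.46, 9.75 and 9.17 in KO replicates 1 to 4. The KO mean was higher by 0.76 (SE 0.29, unadjusted p = 0.0280, adjusted p = 0.346, limma), a 1.69-fold difference, and WT replicate 4 overlapped the KO lungs. The unadjusted p of H1f2 passed 0.05 only with WT replicates 1 and 2 and KO replicates 1 and 3 in the fit: with any of these left out the count of members higher at that level was 0.

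H1f3 (formerly Hist1h1d), another somatic linker gene of Hist1, differed the other way. It read 5.34, 5.38, 5.53 and 5.36 in WT replicates 1 to 4 and 5.33, 5.04, 5.05 and 5.10 in KO replicates 1 to 4, lower by 0.27 (SE 0.08, adjusted p = 0.239). KO replicate 1 was the closest to the WT lungs, just under the lowest of them. H1f5, the linker gene most tied to dividing cells, read 5.08 to 5.58 in WT and 4.78 to 5.36 in KO lungs, a difference of −0.27 (SE 0.14, adjusted p = 0.505). H1f1 differed by −0.12 (SE 0.12). The printed windows of H1f2, H1f3 and H1f5 all hold the H1 box and a CCAAT box, and their differences were 0.76, −0.27 and −0.27.

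The germline and replacement linkers, which the naming rule also takes in, lay near 0. H1f6, H1f7 (formerly H1fnt) and H1f8 (formerly H1foo) are the testis, spermatid and oocyte forms, and H1f10 (formerly H1fx) is a somatic form made outside S phase. Their differences were 0.01 for H1f6, 0.04 for H1f7, −0.02 for H1f8 and 0.07 for H1f10, and all 4 read below 5.27 in every lung. Together with the testis forms H2ac1 (−0.04) and H2bc1 (0.03), these 6 clusters had a median change of 0.02, from −0.04 to 0.07. Without them, 23 of 26 clusters had lower KO means, and the median was −0.22. For H1 as a whole the median was −0.00 and 4 of 8 means were lower.

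All 10 H2A clusters had lower KO means, from −0.43 to −0.04, with a median of −0.29. H2ac12 (formerly Hist1h2ah) had the smallest p among the members. It read 5.76, 5.63, 6.02 and 5.999 in WT replicates 1 to 4 and 5.45, 5.37, 5.59 and 5.48 in KO replicates 1 to 4, lower by 0.38 (SE 0.10, unadjusted p = 0.0037, adjusted p = 0.187). The groups did not overlap, and KO replicate 3 was again the highest KO lung.

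The brightest H2A clusters differed by as much but spread more between lungs. H2ac10 (formerly Hist1h2af) read 11.75, 11.99, 12.47 and 12.38 in WT replicates 1 to 4 and 11.69, 11.56, 12.20 and 11.41 in KO replicates 1 to 4, lower by 0.43 (SE 0.20, adjusted p = 0.440). H2ac14, which the gene table lists as a pseudogene, was the brightest member at 13.16 to 13.85 in WT and 12.87 to 13.72 in KO lungs and differed by −0.41 (SE 0.20). In both, WT replicate 1 lay among the KO lungs and KO replicate 3 among the WT lungs. The dimmer H2ac15 and H2ac24 differed by −0.27 (SE 0.15) and −0.31 (SE 0.17), with overlapping groups.

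The Hist2 members were lower in 6 of 6 clusters, with a median of −0.25. H2ac18 read 6.01, 6.32, 6.52 and 6.44 in WT replicates 1 to 4 and 6.17, 5.83, 6.11 and 5.76 in KO replicates 1 to 4, lower by 0.36 (SE 0.13, adjusted p = 0.334). Only WT replicate 1 kept its groups from separating. H2ac20 read 8.35, 8.79, 8.69 and 8.47 in WT replicates 1 to 4 and 8.32, 8.27, 8.50 and 8.23 in KO replicates 1 to 4, lower by 0.24 (SE 0.11, adjusted p = 0.413). H2ac21 and H2ac19 differed by −0.13 (SE 0.12) and −0.06 (SE 0.14), and without WT replicate 2, its highest lung at 5.78, H2ac21 differed by −0.0047. The other Hist2 members belong to H2B: H2bc21 (formerly Hist2h2be), known in mice as a variant of olfactory neurons, differed by −0.33 (SE 0.16) and H2bc18 by −0.26 (SE 0.18). These became −0.16 for H2bc21 without KO replicate 2 and −0.13 for H2bc18 without WT replicate 3.

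In H2B the single-symbol clusters were less uniform than in H2A. Of 8 clusters, 5 had lower KO means, and the median was −0.09. H2bc3 read 6.17, 6.22, 6.33 and 6.34 in WT replicates 1 to 4 and 6.03, 6.12, 6.23 and 5.92 in KO replicates 1 to 4, lower by 0.19 (SE 0.08, adjusted p = 0.387). KO replicate 3 lay inside the WT range and the other KO lungs below it. H2bc21 read 7.63, 7.43, 7.75 and 7.52 in WT and 7.36, 6.77, 7.32 and 7.58 in KO replicates 1 to 4, and KO replicate 2 was the low lung. H2bc12, H2bc14, H2bc22 and H2bc9 differed by −0.14, −0.04, 0.02 and 0.02. H2bc12, which starts head to head with H2ac12, read 5.37, 5.21, 5.41 and 5.51 in WT and 5.51, 4.98, 5.48 and 4.98 in KO replicates 1 to 4, so that KO replicates 2 and 4 lay below the WT lungs and the other KO lungs within their range.

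H3 and H4 had few single-symbol clusters, all with lower KO means. H3c7 read 4.79, 4.98, 5.11 and 5.15 in WT replicates 1 to 4 and 4.30, 4.72, 4.78 and 4.51 in KO replicates 1 to 4, lower by 0.43 (SE 0.12, adjusted p = 0.218). Its groups did not overlap, though the highest KO lung and the lowest WT lung were close together. H3c8 and H3c3 differed by −0.10 (SE 0.11) and −0.03 (SE 0.10). H4c1 differed by −0.18 (SE 0.12), and the H4c2 cluster on the gene's strand by −0.19 (SE 0.12). A second H4c2 cluster differed by −0.25 (SE 0.17), but by its number order it lies on the opposite strand (the order of cluster numbers matched the gene's strand for 98.6% of 770 genes on chromosome 13), so it may not report the H4c2 mRNA. All H3 and H4 members lay below the median signal of all clusters.

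**Figure D2:**
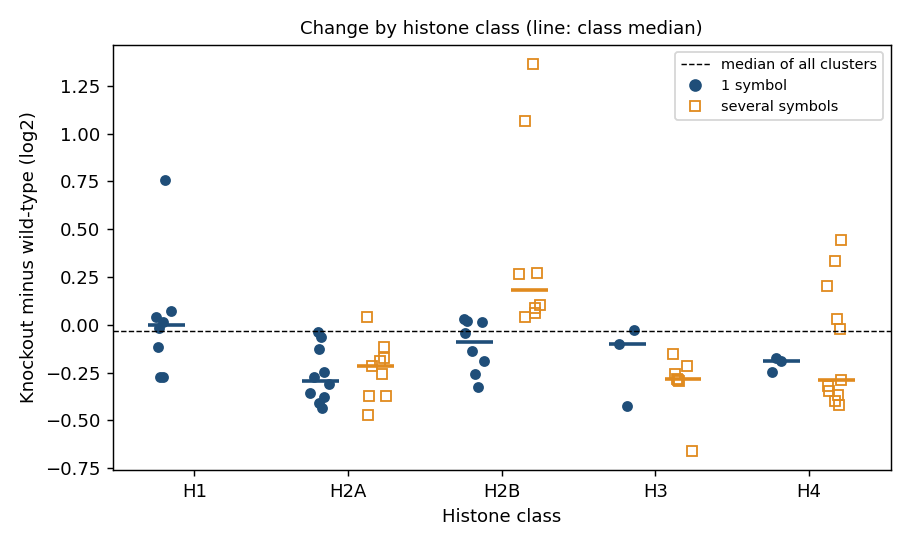
Points give the KO minus WT difference (log2) of each histone cluster by class, blue circles for single-symbol clusters and orange squares for clusters that list several symbols, with short lines for class medians and a dashed line for the median of all clusters (−0.03). Clusters of H1 and H2B joint annotation or of H2A and H3 joint annotation are not drawn. The 10 single-symbol H2A points lie below 0, and the highest points are H1f2 and 2 several-symbol H2B clusters.

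The several-symbol clusters held the histone transcripts that passed the threshold, and these were higher in KO lungs. Of the 37, 2 were called, against 0.276% of all clusters. Both were higher and both list H2bc23, H4bc24, H2bc15, H2bc13, H2bc11 and H2bc7, which all encode H2B. Because they list the same genes and may share probes, these 2 clusters are not separate observations. They were singled out after their values were seen and lie outside the naming rule. The plus-strand cluster, whose first symbol is H4bc24, read 6.77, 6.59, 7.07 and 6.89 in WT replicates 1 to 4 and 8.44, 8.05, 8.70 and 7.58 in KO replicates 1 to 4. It rose by 1.36 (SE 0.22, adjusted p = 0.0492, limma). The minus-strand cluster, whose first symbol is H2bc23, read 7.16, 6.99, 7.09 and 6.80 in WT replicates 1 to 4 and 8.37, 7.91, 8.38 and 7.61 in KO replicates 1 to 4 and rose by 1.06 (SE 0.17, adjusted p = 0.0492, limma). In both, every KO lung was above every WT lung, with KO replicate 3 the highest and KO replicate 4 the lowest of the KO lungs. The call was narrow: with WT replicate 1 left out the adjusted p-values were 0.0577 and 0.0537, and of the 8 fits that leave out 1 array only that without KO replicate 4 kept both calls (0.0119 and 0.0158).

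**Figure D3:**
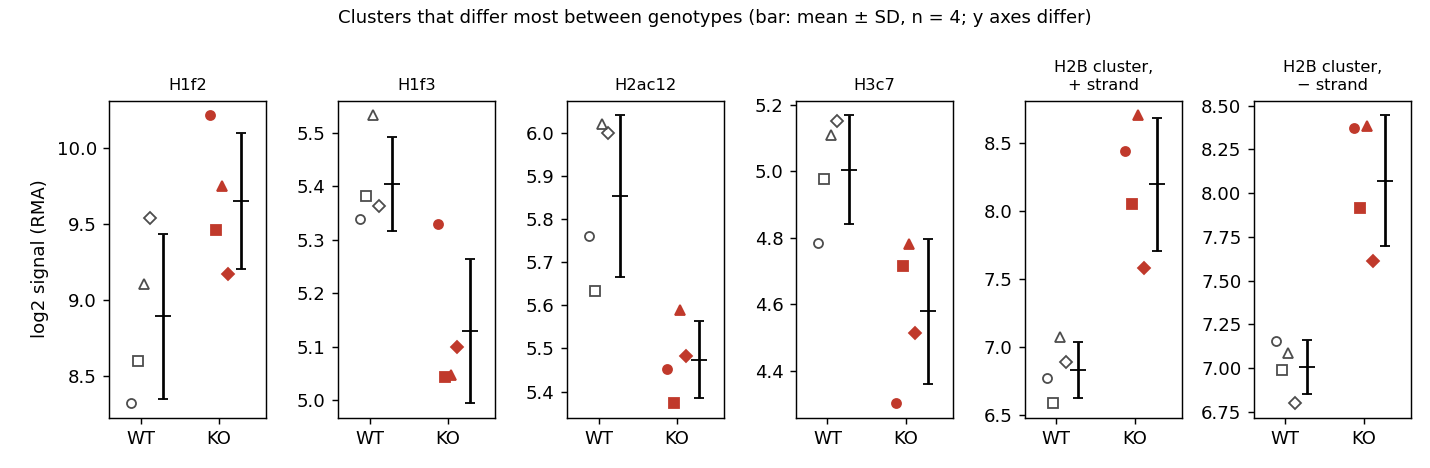
Log2 signal on each array for 4 single-symbol members and the 2 called several-symbol H2B clusters, WT in open grey and KO in filled red, with shapes for replicates and a bar for the mean ± SD (n = 4 per group); each panel has its own axis. KO lungs lie below WT lungs in H1f3, H2ac12 and H3c7, overlap them in H1f2 and lie above them in both H2B clusters.

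The other clusters that list H2B genes of this group differed by less, although whether the differences themselves differ was not tested. Of the 8 several-symbol H2B clusters all had higher KO means, but the clusters whose first symbols are H2bc15, H2bc7, H2bc13 and H2bc11 and which do not list H2bc23 or H4bc24 differed by 0.06 (SE 0.22), 0.09 (SE 0.18), 0.10 (SE 0.21) and 0.27 (SE 0.12). In a stretch of the Hist1 locus, genes that lead several-symbol clusters come in the RefSeq order H3c11, H2ac22, H2bc23, H2ac23, H4c17, H4c18 and H4bc24. The clusters led by these symbols differed by −0.29, −0.37, 1.06, −0.11, 0.34, 0.44 and 1.36 in that order. The single-symbol members H2bc22 and H2ac24, whose cluster numbers lie near those of H2ac23 and H4c18, differed by 0.02 and −0.31. The H4 clusters led by H4c18 (SE 0.17, adjusted p = 0.339) and H4c17 (SE 0.16, adjusted p = 0.445) were not called. In this stretch H2bc23 and H4bc24 have the identical printed window.

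In the other classes most several-symbol clusters had lower KO means, where 61.0% of all clusters did. In H2A they were 8 of 9 (median −0.22) and in H3 7 of 7 (median −0.28). In H4 they were 7 of 11 (63.6%, median −0.29), a share near that of all clusters, with differences from −0.42 to 0.44. The brightest H4 cluster, led by H4c4, read 10.99 to 11.58 in WT and 10.83 to 11.34 in KO lungs and differed by −0.29 (SE 0.15). The H3 cluster led by H3c6 differed by −0.66 (SE 0.25, adjusted p = 0.347), the lowest value among the 37. The cluster that joins the linker gene Hist1h1e with H2B genes differed by 0.01 (SE 0.11). Many of these clusters share genes and may share probes, so they are not separate observations.

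Markers of platelets, red cells and neutrophils were higher in KO lungs on average, as were the H2B clusters and H1f2. Platelet and megakaryocyte markers (10 of 13 measured, all higher in KO, 3 called: Itga2b, Itgb3 and Tubb1) averaged 8.16, 8.60, 8.22 and 10.34 in WT replicates 1 to 4 and 11.76, 11.51, 11.49 and 10.62 in KO replicates 1 to 4. Erythroid markers (6 of 12 measured, 5 higher, 1 called: Alas2) averaged 5.74, 5.62, 5.62 and 5.76 in WT and 7.31, 6.75, 7.51 and 6.68 in KO. By that mean, as in both H2B clusters, the highest KO lung was replicate 3 and the lowest replicate 4. The same held for Slc4a1 (10.22, 9.08, 10.82 and 7.47 in KO replicates 1 to 4), Epb42, Rhag and Klf1, the last being lower in KO than in WT. Kel was highest in KO replicate 1 and lowest in KO replicate 4. Alas2 differed from these, at 13.75, 12.02, 14.14 and 14.19 in KO replicates 1 to 4, with replicate 4 the highest. Neutrophil markers (14 measured, 13 higher, 0 called, 8 higher at an unadjusted p under 0.05) averaged 7.02 to 7.57 in WT and 9.01, 9.95, 7.68 and 8.89 in KO replicates 1 to 4. They were lowest in KO replicate 3, where both H2B clusters were highest. Lymphocyte markers (9 of 10 measured, 0 called) had a median difference of 0.08. Of all clusters, 0.276% were called and 4.40% were higher at an unadjusted p under 0.05. WT replicate 4, the WT lung with raised platelet markers, had the highest H1f2 of the WT lungs (9.54) but read 6.89 and 6.80 in the H2B clusters, inside the WT range. The part of these cells in the histone signals was not tested.

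Genes that act on histone mRNA differed little between genotypes. In the list of processing and decay factors (25 of 27 measured) the median was −0.04 and 0 were called. At an unadjusted p under 0.05, 2 were lower and 2 higher, where 7.63% and 4.40% of all clusters were. Srrt (also Ars2), which links cap binding to 3′ processing, differed by −0.35 (SE 0.10) and the cap-binding protein Ncbp2 by −0.20 (SE 0.08). Eri1, the exonuclease that trims the stem-loop, differed by 0.18 (SE 0.06) and Tut7, a uridyltransferase that marks RNAs for decay, by 0.22 (SE 0.08). The stem-loop binding protein Slbp differed by −0.08 (SE 0.10) and the coactivator Npat by 0.14 (SE 0.07).

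Replacement variants, which are made throughout the cycle from polyadenylated mRNA, and chaperones, which carry histones to DNA, also held no called gene. In the list of variants (11 of 13 measured, 3 of them also members here) the median was −0.07. H2az1 (−0.27, SE 0.10) and H2az2 (−0.23, SE 0.10) were lower at an unadjusted p under 0.05, where 7.63% of all clusters were. H2ax (−0.33, SE 0.18) and Macroh2a2 (0.13, SE 0.07) came next by p. In the list of chaperones (16 of 18 measured) the median was −0.04, and Rbbp7 (−0.23, SE 0.10), a histone-binding partner of assembly and deacetylase complexes, was the only one under that level. Hat1, which acetylates new H4, differed by −0.14 (SE 0.06), the importin Ipo4 by −0.18 (SE 0.08) and the assembly factor subunit Chaf1a by −0.12 (SE 0.06).

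Genes of S phase and mitosis were set beside the histones, whose mRNA is made in S phase. The S phase and replication list (29 of 31 measured) had a median of −0.05, with 0 called. At an unadjusted p under 0.05, 2 were higher, where 4.40% of all clusters were: the helicase subunit Mcm3 (0.29, SE 0.10) and the clamp loader subunit Rfc4 (0.15, SE 0.07). Gins1 and Clspn differed by −0.13 (SE 0.07) and −0.12 (SE 0.07), the sliding clamp Pcna by −0.01 (SE 0.10) and the ribonucleotide reductase subunit Rrm2 by −0.05 (SE 0.15). The G2 and mitosis list (19 of 20 measured) was lower in 18 genes, where 61.0% of all clusters were, with a median of −0.18. Of its genes 0 were called, against 0.276% of all clusters, and 5 were lower at an unadjusted p under 0.05, against 7.63%. Its smallest p-values were those of Cenpf (−0.33, SE 0.10), Cdk1 (−0.28, SE 0.08), Bub1 (−0.25, SE 0.09) and Bub1b (−0.28, SE 0.10). Top2a differed by −0.47 (SE 0.24) and Mki67 by −0.01 (SE 0.31).

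By array, the mitotic genes and the histones shared KO replicate 3 as the highest KO lung. By mean signal KO replicate 4 was the lowest KO lung for both, at 5.75 for the mitotic genes and 5.64 for the histones. For the histones KO replicate 2 was close to it by the mean (5.65), and was the lowest by the median deviation. The G2 and mitosis mean was 6.10, 5.91, 6.15 and 6.20 in WT replicates 1 to 4 and 5.80, 5.81, 6.26 and 5.75 in KO replicates 1 to 4, so that KO replicate 3 was the highest lung and the other KO lungs were below every WT lung. The S phase mean was 6.35 to 6.43 in WT, and 6.36, 6.34, 6.49 and 6.25 in KO replicates 1 to 4. The mean of 1932 small nuclear, nucleolar and ribosomal RNA genes was 6.52, 7.11, 6.91 and 7.03 in WT and 6.78, 6.78, 6.67 and 6.59 in KO. There KO replicate 3 was not the highest KO lung. With it as a covariate, the median change of the histone clusters was −0.11 in place of −0.16, and that of H4 −0.09 in place of −0.19. The part of dividing cells in the histone levels was not tested.

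**Figure D4:**
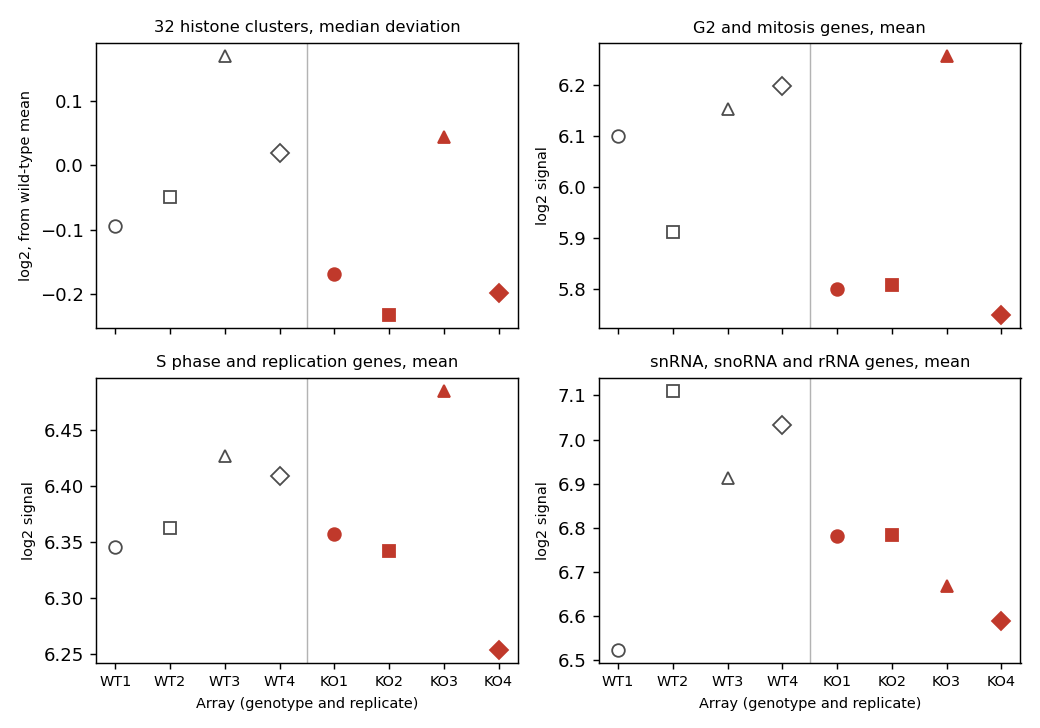
Values for each of the 8 arrays: the median deviation of the 32 histone clusters from their WT means, and the mean log2 signal of the G2 and mitosis genes, of the S phase and replication genes and of small RNA genes (open grey, WT; filled red, KO). KO replicate 3 stands above the other KO lungs in the first 3 panels (0.04 for the histones, 6.26 for the mitotic genes, 6.49 for the S phase genes) and not in the small RNA panel (6.67).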

How the data were processed

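Total RNA was primed by the study with poly(T) and random oligomers, amplified, biotin-labelled and hybridised to Clariom D mouse arrays. The deposited values are log2 signals from the authors' RMA step (robust multi-array averaging, default parameters), which subtracts background, gives all arrays the same distribution and summarises probes, so a shift shared by most transcripts would be lost. The build behind the array annotation was not given in the sources used here. Symbols came from the platform's annotation table, brought up to date by gene ID from a RefSeq table of GRCm38.p6. Signals carry no read depth, and the 4 arrays per group limit the precision; titles name biological replicates, so p-values rest on the spread between these animals.

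Genotypes were compared over all 65956 clusters by a two-sided moderated test without covariates (limma 3.58.1, functions lmFit and eBayes, under R 4.3.3) and Benjamini-Hochberg adjustment. A cluster was called where the adjusted p did not exceed 0.05 and the fold exceeded 1.5, the study's own limits. Differences are KO minus WT on the log2 scale. Tested on simulated data of this comparison over 65956 clusters, the fit recovered 8 of 50 changes of 1.5-fold, 40 of 50 of 2-fold, 47 of 50 of 3-fold and 50 of 50 of 4-fold, with 3 false calls. The members, the companion lists and the rule for named genes (per class the 4 smallest p-values and the 2 brightest clusters, all Hist2 and H1f members, and per list the 4 smallest p-values, with marker lists of blood, lung and other organs summarised) were chosen with earlier results of these data known. Several-symbol clusters were described apart. Alternatives concerned scaling (median centring, cyclic loess), features (bright clusters alone, the brightest cluster of each gene) and the variance model (array weights, robust eBayes with a trend). Others concerned the test (a t-test with pooled variance, other thresholds), the samples (males alone, each array left out) and added terms (sex, replicate number, small RNA mean). Motifs were searched on both strands in 170 bases. Figures were drawn with matplotlib 3.10.9.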

Additional observations from a re-analysis of the deposited data

Results flagged for a closer look

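H2ac15, an H2A gene of the Hist1 locus, was set apart in 1 lung: it read 5.28 (log2 signal) in KO replicate 3, where the KO lungs ranged from 4.62 to 5.28, and the gap to the nearest KO lung was 0.883 of that range, above Dixon's 95% critical value for 4 samples. The WT lungs read 4.92 to 5.27, so KO replicate 3 lay just above the WT lungs. This was 1 of 80 groups examined, and chance flags about 1 in 20 of them.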

How the results depend on the processing

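No histone cluster with a single symbol was called under any alternative or with any array left out, and the median over all 32 kept its sign, from −0.23 to −0.13 over left-out arrays. The medians of H2A (−0.41 to −0.21), H2B (−0.15 to −0.02), H3 (−0.21 to −0.04), H4 (−0.28 to −0.13), Hist1 (−0.24 to −0.13) and Hist2 (−0.32 to −0.17) kept theirs too. In males only these medians kept their sign but were smaller, at −0.17 for H2A, −0.02 for H2B, −0.04 for H3, −0.12 for H4, −0.08 for Hist1 and −0.11 for Hist2, and the small RNA covariate gave −0.09 for H4. The H1 median reversed to 0.0224 with median centring, 0.0267 with loess and 0.24 above the median signal, where only 2 H1 clusters were left, and ranged from −0.0296 to 0.0185 over left-out arrays. The number with lower means became 13 above the median signal, where fewer clusters were tested. Over all clusters, 182 were called, against 0 by the t-test with pooled variance, 4 in males only and 315 with the adjusted p limit raised to 0.1. With an array left out, 8 to 266 were called (8 without WT replicate 3 or KO replicate 1, 65 without KO replicate 2, 82 without WT replicate 2, 89 without KO replicate 3). The count of 6 lower at an unadjusted p under 0.05 became 2 in males only and 3 to 13 over left-out arrays, and the count of 1 higher became 0 by the t-test and 0 to 1 over left-out arrays. The 2 several-symbol calls became 0 with median centring, array weights, the t-test, sex as a covariate, males only and the small RNA covariate, and 0 to 2 over left-out arrays. Apart from the filter on dim clusters and the left-out arrays, the cause of these changes was not tested.

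Same-numbered WT and KO arrays deviated from their group means with correlations of −0.05, 0.05, 0.02 and −0.22 over the clusters above the median signal. The numbers were therefore not taken to pair animals. With the replicate block, 0 clusters were called over the array and 0 of the several-symbol clusters, and 12 members were lower and 0 higher at an unadjusted p under 0.05.

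Single members that changed sign all lay near 0. They were H1f1 (0.0248), H1f10 (−0.0223), H1f7 (−0.0311), H2ac19 (0.0504), H2bc22 (−0.0123) and H2bc9 (−0.0181) with the small RNA covariate, H1f6 (−0.0038) and H2bc9 (−0.0103) with array weights, H1f8 with centring (0.0068) and loess (0.0097), H3c3 with centring (9.2e-05), and H2ac19 (0.0685), H2bc14 (0.0284) and H3c3 (0.10) in males only. Over left-out arrays H1f6 ranged from −0.0328 to 0.0463, H1f8 from −0.0695 to 0.0126, H2ac1 from −0.10 to 0.0180, H2ac19 from −0.19 to 0.0225, H2bc1 from −0.0315 to 0.0879, H2bc14 from −0.0873 to 0.0539, H2bc22 from −0.0189 to 0.0451, H2bc9 from −0.0722 to 0.11 and H3c3 from −0.0935 to 0.0518.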
